A study of Homo sapiens with 16 samples.

Results

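The 5 genes described here are the D-type cyclins CCND1, CCND2 and CCND3 and their catalytic partners CDK4 and CDK6. They were taken by symbol from a table of 20271 genes. CCND1 was chosen by its values in these libraries, a level that was higher with iASPP siRNA and less so when p53 was also targeted, and the other 4 were added as the genes that work with it. The comparisons of the libraries without nutlin that involve iASPP siRNA are therefore described for these genes and not tested, and so is the difference between the nutlin responses of CTR siRNA and iASPP siRNA cells. The wording of the choice does not name the nutlin state, so the levels of CCND1 in the nutlin libraries may have been in view as well, and its p-values there are not independent support for that pattern.

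Messenger RNA was sequenced from HCT116, a colon cancer cell line with wild-type p53. Cells received for 3 days an siRNA against p53, against iASPP or against both (p53+iASPP siRNA), or a control (CTR) siRNA, and each of these 4 groups was repeated with nutlin, an inhibitor of MDM2, for another 0.5 days. This gave 8 groups of 2 libraries, 16 in all, in a study of p53 transcriptional activity. iASPP, encoded by PPP1R13L, is an inhibitory member of the ASPP family of p53-binding proteins. The labels do not say whether the 2 replicates of a group were separate cultures, so the p-values measure the spread between libraries, which may be technical.

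D-type cyclins are the regulatory subunits of CDK4 and CDK6. Their genes respond to growth factor signalling, and the assembled kinases phosphorylate RB and its relatives, which releases E2F factors and lets cells enter S phase. p16 and the other INK4 proteins block CDK4 and CDK6 directly. p21 (CDKN1A), the best known p53 target in the cell cycle, inhibits CDK2 and at low occupancy helps cyclin D assemble with CDK4. In colon cancer cells cyclin D1 is a well known target of growth factor, WNT and YAP signalling.

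All 3 D-type cyclins carry near their start the motif LxCxE, through which they dock on RB. The first 60 coding bases are shown because they show that CCND1 and CCND3, the D-type cyclins transcribed here, and CCND2, which was nearly absent, carry the same docking motif at nearly the same place. Capitals mark the 5 codons of the motif, and the sequences are those of GENCODE 29 transcripts on GRCh38 at chr11:69641314-69641373 (plus strand), chr12:4274041-4274100 (plus strand) and chr6:41941590-41941649 (minus strand).
CCND1: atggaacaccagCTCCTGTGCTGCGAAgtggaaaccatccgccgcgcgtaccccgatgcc
CCND2: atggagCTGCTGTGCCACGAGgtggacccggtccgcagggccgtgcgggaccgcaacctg
CCND3: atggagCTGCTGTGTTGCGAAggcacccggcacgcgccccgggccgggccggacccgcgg
The motif lay at codons 5 to 9 of 295 in CCND1, at codons 3 to 7 of 289 in CCND2 and at codons 3 to 7 of 292 in CCND3. The kinases CDK4 and CDK6 have 303 and 326 codons.

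Promoter windows of 300 bases (250 before to 50 after a start site) were found in RefSeq for 3 of the 5 genes, CCND3, CDK4 and CDK6. The windows of CDK4 and CCND3 are shown because the group means of these 2 genes varied together (Pearson correlation 0.880 over 8 groups). They are the CDK4 window chr12:57752261-57752560 and, of the 3 CCND3 windows, the one nearest upstream of the coding start, chr6:41941759-41942058 (both minus strand, GRCh38.p14). Capitals mark the E-box CACGTG, a site bound by MYC and related factors, and the GC box GGGCGG, a site bound by SP1, on either strand.
CDK4: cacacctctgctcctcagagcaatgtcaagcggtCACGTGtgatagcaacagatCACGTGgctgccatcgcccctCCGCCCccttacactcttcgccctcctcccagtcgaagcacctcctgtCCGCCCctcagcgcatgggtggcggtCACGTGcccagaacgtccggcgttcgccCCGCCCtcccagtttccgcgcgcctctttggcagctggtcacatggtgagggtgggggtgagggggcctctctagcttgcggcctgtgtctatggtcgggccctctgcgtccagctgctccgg
CCND3: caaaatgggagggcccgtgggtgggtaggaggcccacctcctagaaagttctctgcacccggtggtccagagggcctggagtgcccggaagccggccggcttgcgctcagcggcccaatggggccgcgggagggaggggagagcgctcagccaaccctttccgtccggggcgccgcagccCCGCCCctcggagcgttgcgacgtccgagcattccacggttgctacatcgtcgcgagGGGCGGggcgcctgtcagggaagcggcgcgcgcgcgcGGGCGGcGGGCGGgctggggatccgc
The CDK4 window held 3 E-boxes and 3 GC boxes, and the CCND3 window held 4 GC boxes and 0 E-boxes. Of 35116 windows of this length, 7.26% held an E-box, 0.094% held at least 3, and 45% held a GC box. Of the 2 CDK6 windows, 1 held 3 GC boxes and 1 E-box and the other held neither motif. The CRE TGACGTCA (in 1.85% of windows), the AP-1 site TGANTCA (7.71%) and the p53 decamer consensus (6.63%) were in none of the windows of these 3 genes. These are matches of letters, without evidence of binding.

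Levels are FPKM, read fragments scaled to transcript length and to library size, as deposited, and tests were limma fits on log2(FPKM + 1). Replicates of 5 groups lay close together, with a median absolute log2 difference of 0.0498 to 0.0638 over genes at 100 FPKM or more. In 3 groups, p53 siRNA+nutlin, iASPP siRNA+nutlin and p53+iASPP siRNA+nutlin, the 2 replicates lay further apart (0.1685 to 0.2326), and 2 libraries cannot show which of them departs. The differences of the 5 genes that rest on these 3 groups are therefore also given with replicate 2 of all 3 left out and with replicate 1 of all 3 left out, the second chosen after seeing the data. In both settings the spread comes from the 5 close groups alone and the lone libraries are assumed to vary like those, so calls gained there rest on that assumption. The main fit takes for each gene a single spread, shared by the 8 groups. Its ± and adjusted p can thus be too small in comparisons that include any of the 3 groups with replicates further apart. Relative depth was 0.824 to 1.33 in the replicate 1 libraries and 3.67 to 7.67 in the replicate 2 libraries, in units of replicate 1 of CTR siRNA. PPP1R13L was at 9.32 ± 0.888 FPKM with CTR siRNA and 0.410 ± 0.186 with iASPP siRNA (SD, n = 2). Colon epithelial markers reached a mean of 1 FPKM for 8 of 10 genes, with a summed level of 3085 to 5741 FPKM per library (CDX1 was at 0 and VIL1 near 0), while the summed markers reached at most 7.94 FPKM for immune cells (CD68 was the 1 of 6 above 1 FPKM), 1.86 for fibroblasts and 0.319 for endothelium.

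CCND1 was the dominant D-type cyclin. It was listed at 63.1 and 63.8 FPKM with CTR siRNA and 71.9 and 68.8 with p53 siRNA. With iASPP siRNA it stood at 247 and 243 FPKM, and with p53+iASPP siRNA at 96.2 and 97.2. The iASPP siRNA libraries thus lay far above all others without nutlin, 3.86-fold above CTR siRNA, and the libraries with both siRNAs lay between. The fitted log2 difference was 1.93 ± 0.12 (SE) for iASPP siRNA against CTR siRNA and 0.45 ± 0.12 for p53+iASPP siRNA against p53 siRNA, and these differ by -1.48 ± 0.17. These values chose the gene, so nothing is read from them. The target of the siRNA, PPP1R13L, was at 0.541 and 0.279 FPKM with iASPP siRNA and at 1.73 and 1.03 FPKM when both were targeted, and the part of this gap in the CCND1 levels was not tested. In the contrast of iASPP siRNA with CTR siRNA, 7.86% of all 10662 genes tested passed the threshold, an adjusted p under 0.05. In bulk RNA, a change in the share of cells that hold a transcript and a change in transcript per cell cannot be told apart.

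In the nutlin libraries CCND1 was at 90.4 and 95.8 FPKM in control cells and at 61.3 and 59.8 FPKM after p53 siRNA. Cells given iASPP siRNA had 219 and 162 FPKM, and those given both siRNAs 76.6 and 80.5. The iASPP siRNA libraries were again the highest, but the lowest were those with p53 siRNA, whereas without nutlin the lowest were those with CTR siRNA. Ranked over all 8 groups, no neighbouring groups overlapped, from iASPP siRNA at 245 FPKM down to p53 siRNA+nutlin at 60.6 FPKM, although the gap was small between p53+iASPP siRNA (96.7) and CTR siRNA+nutlin (93.1). The 2 libraries of iASPP siRNA+nutlin lay further apart than those of any other group.

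**Figure D1:**
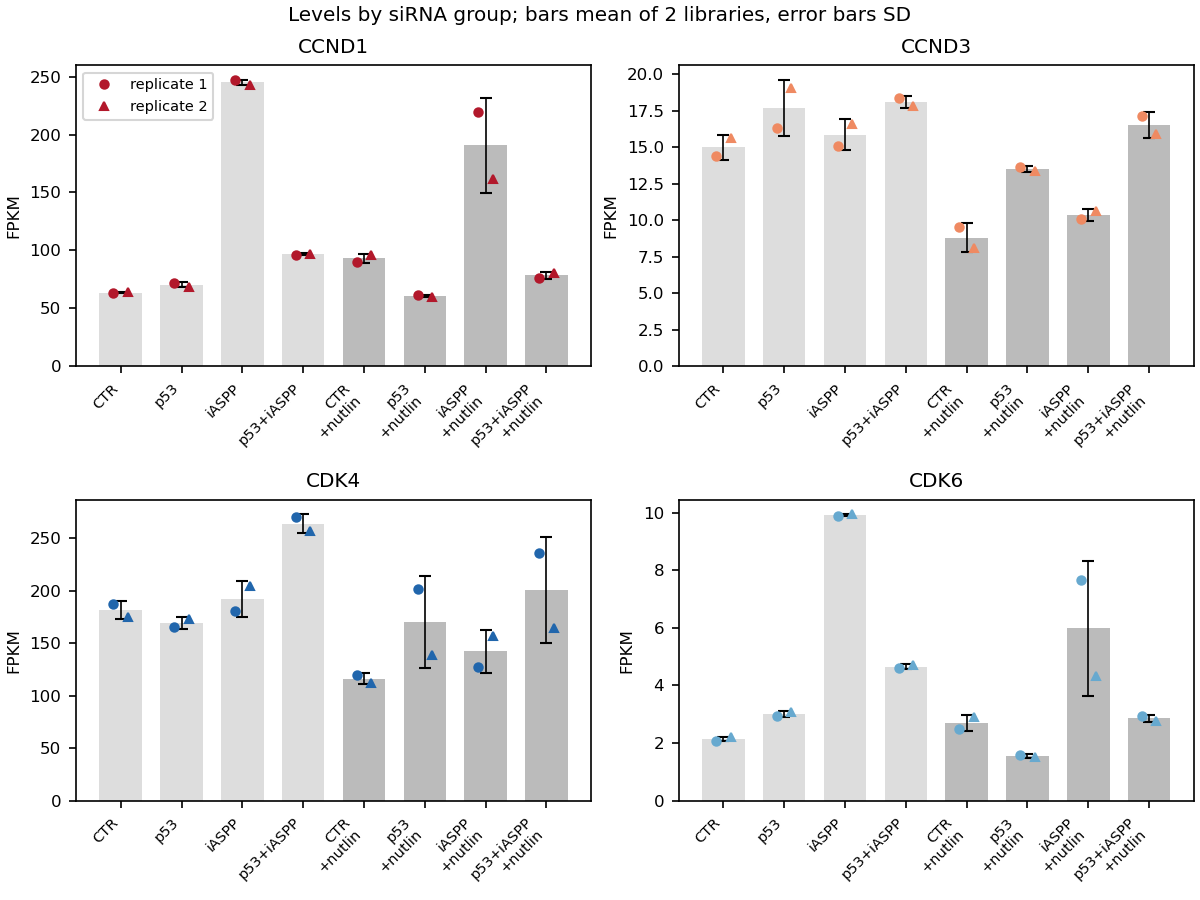
Levels of CCND1, CCND3, CDK4 and CDK6 in FPKM (y axis, linear, from 0) in the 8 groups (x axis). Bars are means of 2 libraries, error bars are SD, and circles and triangles are replicates 1 and 2. CCND1 and CDK6 are highest with iASPP siRNA, CDK4 is highest with p53+iASPP siRNA, and CCND3 is lowest with CTR siRNA+nutlin.

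Nutlin raised CCND1 in CTR siRNA cells, and its response with p53 siRNA differed from that. The log2 difference was 0.55 ± 0.12 (1.47-fold, adjusted p = 0.00765) with CTR siRNA, where 26.8% of all genes passed the threshold. With p53 siRNA it was -0.21 ± 0.12 (adjusted p = 0.436), where 0.225% passed. The difference between these responses was itself tested and was -0.76 ± 0.17 (adjusted p = 0.0217), among 9.75% of genes called. The CTR siRNA libraries also entered the contrast that chose CCND1, and the p53 siRNA libraries without nutlin may have entered the choice. Leaving out replicate 1 of CTR siRNA or replicate 2 of CTR siRNA+nutlin took the response in CTR siRNA cells to 0.54 and 0.50, at adjusted p = 0.0514 and 0.0565. The interaction missed the threshold, at adjusted p = 0.0587 to 0.0809, without any single library of CTR siRNA or CTR siRNA+nutlin and without replicate 1 of p53 siRNA.

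Within the nutlin libraries p53 siRNA lowered CCND1 both with and without iASPP siRNA. The second of these values may be part of the pattern that chose the gene. The log2 difference was -0.61 ± 0.12 (0.651-fold, adjusted p = 0.00505, 22.5% of genes called) for p53 siRNA alone. For p53 siRNA on top of iASPP siRNA it was -1.25 ± 0.12 (0.412-fold, adjusted p = 3.6e-04, 15.6% of genes called). With replicate 2 of the 3 spread groups left out these values were -0.59 and -1.51, and with replicate 1 left out -0.63 and -0.998, all past the threshold.

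With nutlin, CCND1 was higher with iASPP siRNA than with CTR siRNA. This is the kind of rise that CCND1 was chosen for, and the nutlin libraries may have entered the choice, so the test is not independent of it. The log2 difference was 1.01 ± 0.12 (2.05-fold, adjusted p = 0.0123), in a comparison where 0.769% of genes, 82 of 10662, passed. That ± rests on the spread shared by the 8 groups, while the iASPP siRNA+nutlin libraries lay the furthest apart for CCND1. With only the groups compared in the fit it was 1.01 ± 0.19 and did not pass (adjusted p = 0.638). When p53 was also targeted, the difference was 0.37 ± 0.12 (adjusted p = 0.961, 0.00938% of genes called). The difference between the 2 iASPP effects was -0.64 ± 0.17 and did not pass (adjusted p = 0.636). In that interaction 0% of genes were called and 774 had an unadjusted p under 0.05. It depended on which library of iASPP siRNA+nutlin was used, at -0.86 (adjusted p = 0.0212) without replicate 2 and -0.42 (adjusted p = 0.157) without replicate 1. Likewise it was -0.91 (adjusted p = 0.0106) with replicate 2 of the 3 spread groups left out and -0.37 (adjusted p = 0.128) with replicate 1 left out. The iASPP effect with nutlin was 1.23 and 0.79 in the last 2 settings (adjusted p = 1.4e-04 and 4.1e-04) and did not pass without replicate 1 of CTR siRNA+nutlin (0.97, adjusted p = 0.121).

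In iASPP siRNA cells the level with nutlin was 0.779-fold that without, a log2 difference of -0.38 ± 0.12 that did not pass (adjusted p = 0.106, 5.21% of genes called). Without replicate 1 of iASPP siRNA+nutlin it was -0.60 and passed (adjusted p = 0.0157), and without replicate 2 it was -0.16 and did not (adjusted p = 0.24). In p53+iASPP siRNA cells it was -0.30 ± 0.12 (adjusted p = 0.694, 0% of genes called, 753 with an unadjusted p under 0.05). The nutlin response in iASPP siRNA cells was lower than in CTR siRNA cells by -0.92 ± 0.17 on the log2 scale, a difference that involves the libraries that chose the gene and was not tested; the median of all genes for it was 0.16, and 0.01 after scaling between libraries. Without iASPP siRNA and without nutlin, p53 siRNA gave 0.15 ± 0.12 (adjusted p = 0.646), where 0.0375% of genes were called. In p53 siRNA cells the nutlin difference was -0.23 and passed with replicate 1 of the 3 spread groups left out (adjusted p = 0.0482), and was -0.19 with replicate 2 left out (adjusted p = 0.148). The libraries without nutlin behind these values are those that chose CCND1.

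**Figure D2:**
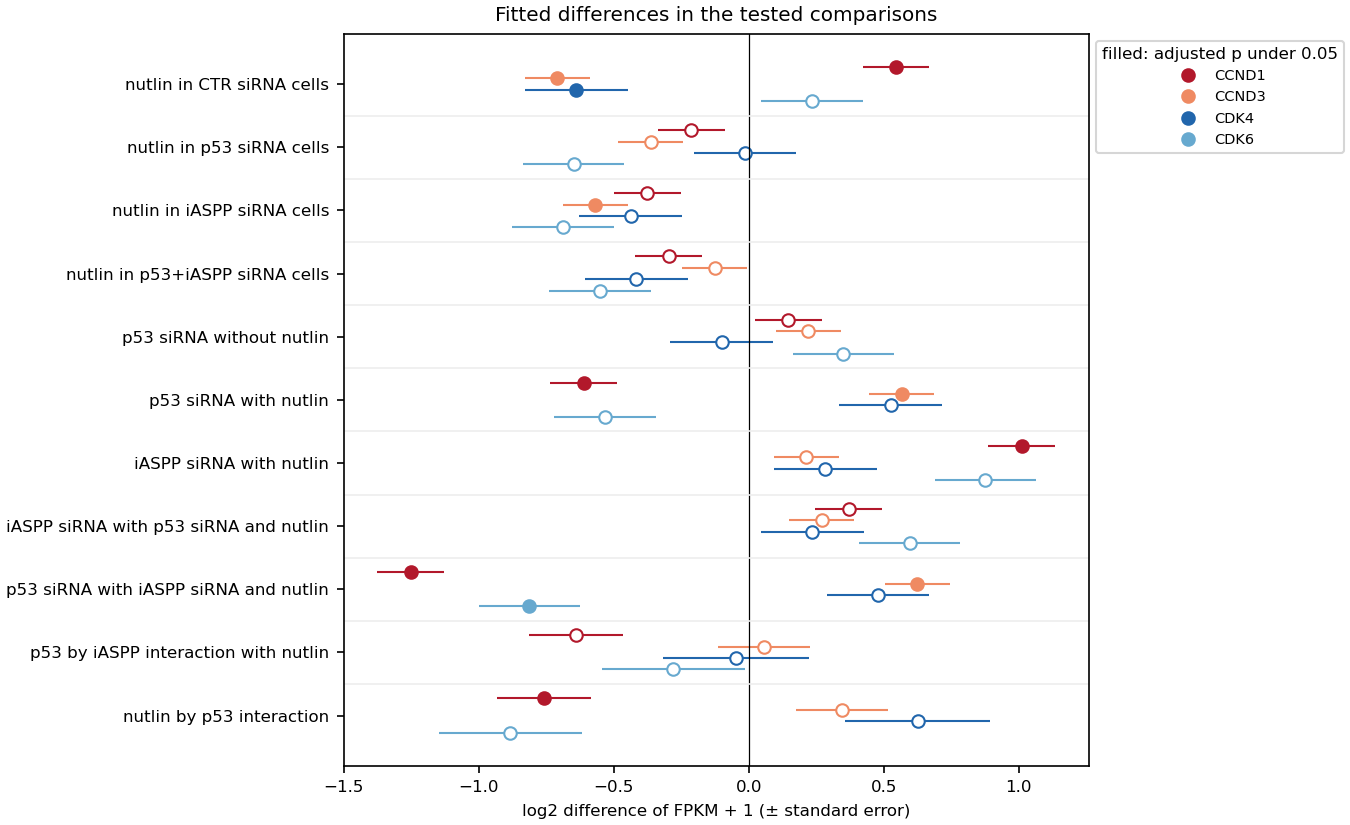
Fitted log2 differences (x axis, in log2 of FPKM + 1, points with standard errors) for CCND1, CCND3, CDK4 and CDK6 in the 11 tested comparisons (y axis). Filled points passed the adjusted p threshold of 0.05. CCND1 and CCND3 point in opposite directions for nutlin in CTR siRNA cells and for both effects of p53 siRNA with nutlin.

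CDK6, the kinase partner expressed at the lower level, had group means that followed those of CCND1, with a Pearson correlation of 0.944 over 8 group means of log2(FPKM + 1), given as a description. It was listed at 2.08 and 2.20 FPKM in control cells, 2.93 and 3.07 after p53 siRNA, 9.89 and 9.95 after iASPP siRNA, and 4.60 and 4.71 after both. With nutlin it was at 2.50 and 2.89, 1.60 and 1.50, 7.65 and 4.31, and 2.95 and 2.77 FPKM in the same order of siRNAs. As for CCND1, both iASPP siRNA libraries stood above all others without nutlin, 4.64-fold above CTR siRNA, and both p53+iASPP siRNA libraries lay between.

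CDK6 passed the threshold in 1 comparison: with nutlin and iASPP siRNA, p53 siRNA lowered it, with a log2 difference of -0.81 ± 0.19 (0.478-fold, adjusted p = 0.0149). It missed the threshold without replicate 1 of iASPP siRNA+nutlin (-0.46, adjusted p = 0.083) and without replicate 1 or 2 of p53+iASPP siRNA+nutlin (adjusted p = 0.0674 and 0.0555). With replicate 2 of the 3 spread groups left out it was -1.13 (adjusted p = 6.4e-04), and with replicate 1 left out -0.50, which did not pass (adjusted p = 0.0727). The iASPP effect with nutlin was 0.88 ± 0.19 (2.22-fold) and missed the threshold (adjusted p = 0.0645), although the libraries of the 2 groups did not overlap. That effect was 1.23 (adjusted p = 0.00245) without replicate 2 of iASPP siRNA+nutlin and 0.53 (adjusted p = 0.0618) without replicate 1. With replicate 2 or replicate 1 of all 3 spread groups left out it was also 1.23 and 0.53 and passed both times (adjusted p = 0.00123 and 0.0273). For nutlin in CTR siRNA cells the difference was 0.23 ± 0.19 (adjusted p = 0.383), and in p53 siRNA cells it was -0.65 ± 0.19 (adjusted p = 0.156). The difference between these responses was -0.88 ± 0.27 (adjusted p = 0.0602). With replicate 2 or replicate 1 of the 3 spread groups left out it was -0.86 and -0.91 and passed (adjusted p = 0.00549 and 0.00487). It also passed without either library of iASPP siRNA+nutlin (adjusted p = 0.00425 and 0.00406), and so did the effect of p53 siRNA with nutlin, which was -0.53 ± 0.19 (adjusted p = 0.0633, and 0.00533 and 0.00512 without those libraries). Likewise the nutlin difference in p53 siRNA cells passed without either of them (adjusted p = 0.0266 and 0.0262). The nutlin difference in iASPP siRNA cells was -0.69 ± 0.19 (adjusted p = 0.0594), and it was -1.04 (adjusted p = 0.0119) without replicate 1 of iASPP siRNA+nutlin but -0.34 (adjusted p = 0.112) without replicate 2. In the fits with replicate 1 or replicate 2 of all 3 spread groups left out these values had adjusted p = 0.00187 and 0.0619.

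CCND3, which shares the RB-docking motif shown above, moved the other way from CCND1 in the 3 comparisons in which both passed the threshold. It was at 14.4 and 15.6 FPKM with CTR siRNA and 9.53 and 8.10 with CTR siRNA+nutlin. After p53 siRNA it was at 16.3 and 19.1 FPKM without and 13.7 and 13.4 with nutlin. After iASPP siRNA the values were 15.1 and 16.6 FPKM without and 10.1 and 10.7 with nutlin, and after both siRNAs 18.4 and 17.8 without and 17.1 and 15.9 with nutlin. The iASPP siRNA libraries thus overlapped those of CTR siRNA without nutlin, and the lowest libraries were those with nutlin in which p53 was not targeted.

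Nutlin lowered CCND3 in CTR siRNA cells, with a log2 difference of -0.71 ± 0.12 (0.587-fold, adjusted p = 0.00144), and in iASPP siRNA cells, with -0.57 ± 0.12 (0.654-fold, adjusted p = 0.0241). The last missed the threshold without replicate 1 or 2 of iASPP siRNA (adjusted p = 0.13 and 0.148) and without replicate 1 of iASPP siRNA+nutlin (adjusted p = 0.106). With p53 siRNA the change with nutlin was -0.36 ± 0.12 (adjusted p = 0.208), and with p53+iASPP siRNA -0.13 ± 0.12 (adjusted p = 0.83). The interaction of nutlin with p53 siRNA was 0.35 ± 0.17 and did not pass (adjusted p = 0.214), so a difference between these responses was not shown. With nutlin, p53 siRNA raised CCND3 by 0.57 ± 0.12 (1.53-fold, adjusted p = 0.00688) alone and by 0.63 ± 0.12 (1.60-fold, adjusted p = 0.00626) with iASPP siRNA. The first missed the threshold without replicate 2 of CTR siRNA+nutlin (0.46, adjusted p = 0.0682) and the second without replicate 1 of p53+iASPP siRNA+nutlin (0.57, adjusted p = 0.0515). With replicate 2 of the 3 spread groups left out the values were 0.58 and 0.71 (adjusted p = 0.0145 and 0.0116) and the nutlin difference in iASPP siRNA cells was -0.61 (adjusted p = 0.0149). With replicate 1 left out they were 0.55 (adjusted p = 0.0219), 0.54, which did not pass (adjusted p = 0.101), and -0.53 (adjusted p = 0.0498). The nutlin comparison in CTR siRNA cells and the p53 siRNA comparison with nutlin share the CTR siRNA+nutlin libraries, here and for the other genes.

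CCND2 was listed at 0 FPKM in most libraries and reached at most 0.0842 FPKM. It is the 1 of the 5 genes that fell under the mean of 1 FPKM and was not tested.

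CDK4, at 112 to 270 FPKM per library, had the highest mean of the 5 genes over the 16 libraries (179 FPKM, against 112 for CCND1), although CCND1 stood above it in all 4 iASPP siRNA libraries without p53 siRNA. It was listed at 187 and 175 FPKM with CTR siRNA and 165 and 173 after p53 siRNA. Cells given iASPP siRNA had 180 and 204 FPKM, and those given both had 270 and 257. With nutlin it was at 120 and 112 FPKM in control cells, 201 and 139 after p53 siRNA, 127 and 157 after iASPP siRNA and 236 and 165 after both. The highest libraries were those with p53+iASPP siRNA without nutlin, 1.56-fold above p53 siRNA, and the lowest were those with CTR siRNA+nutlin. The 3 groups with replicates further apart spread most.

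Nutlin lowered CDK4 in CTR siRNA cells, with a log2 difference of -0.64 ± 0.19 (0.640-fold, adjusted p = 0.0289), its only call. That call was lost without any 1 of the 4 libraries compared (adjusted p = 0.0815 to 0.141). In iASPP siRNA cells the difference was -0.44 ± 0.19 (adjusted p = 0.208) and with p53 siRNA alone the libraries with and without nutlin overlapped. With nutlin, p53 siRNA gave 0.53 ± 0.19 (adjusted p = 0.0698) alone and 0.48 ± 0.19 (adjusted p = 0.116) with iASPP siRNA. These values turned on which replicate was used. With replicate 2 of the 3 spread groups left out they were 0.79 (adjusted p = 5.7e-04) and 0.88 (adjusted p = 7.2e-04), and with replicate 1 left out 0.26 (adjusted p = 0.0714) and 0.07 (adjusted p = 0.812). Leaving out replicate 2 of p53 siRNA+nutlin alone the first passed (adjusted p = 0.0187), and leaving out replicate 1 it did not (0.26, adjusted p = 0.418). It also passed without either replicate of p53+iASPP siRNA+nutlin (adjusted p = 0.0415 and 0.0414). The second passed without replicate 2 of p53+iASPP siRNA+nutlin (0.74, adjusted p = 0.0367) and not without replicate 1 (0.22, adjusted p = 0.538). The nutlin difference in iASPP siRNA cells was -0.58 (adjusted p = 0.00319) and -0.29 (adjusted p = 0.0886) with replicate 2 and with replicate 1 of the 3 groups left out. The nutlin by p53 interaction was 0.63 ± 0.27 (adjusted p = 0.158), and 0.89 (adjusted p = 0.00169) and 0.36 (adjusted p = 0.0624) in those settings. With replicate 1 left out, CDK4 also passed for nutlin in p53+iASPP siRNA cells (-0.68, adjusted p = 0.0106, against -0.16 and 0.391 with replicate 2 left out) and for iASPP siRNA with nutlin (0.43, adjusted p = 0.0246, against 0.14 and 0.344). The group means of CCND1 and CDK4 had a Pearson correlation of -0.056 over 8 groups, as a description.

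In all, 11 of the 44 comparisons of the 4 tested genes passed. Of these, 3 were for nutlin in CTR siRNA cells (26.8% of all genes called) and 2 for p53 siRNA with nutlin (22.5%). For p53 siRNA with iASPP siRNA and nutlin 3 passed (15.6%). Nutlin in iASPP siRNA cells (5.21%), iASPP siRNA with nutlin (0.769%) and the nutlin by p53 interaction (9.75%) gave 1 each. The count of 11 is therefore not read as a result about these genes. When the replicates of the 5 groups with close replicates were averaged into 1 sample each, none of the 11 passed, and all 11 kept their direction. FPKM values carry no correction for a shift of the whole library, and scaling each library to the median of its ratios to all libraries moved the median of all genes by 0.20 for nutlin in CTR siRNA cells, by -0.18 for p53 siRNA with nutlin and by -0.19 for their interaction. Measured relative to that shift, the nutlin response in CTR siRNA cells was 0.78 for CCND1, -0.49 for CCND3 and -0.40 for CDK4, and the last no longer passed (adjusted p = 0.166). For p53 siRNA with nutlin the scaled differences were -0.83 for CCND1 and 0.37 for CCND3, and the last missed the threshold (adjusted p = 0.0607). The scaled nutlin by p53 interaction of CCND1 was -0.98 (adjusted p = 0.0211).

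Since FPKM is per length, the levels of these genes can be summed and compared with each other. The summed D-type cyclins were 78.5 ± 1.34 FPKM with CTR siRNA and 261 ± 1.44 with iASPP siRNA (SD, n = 2), and CCND1 made up 80.9% and 93.9% of them. With nutlin the sum was 102 ± 2.79 FPKM with CTR siRNA, 91.3% of it CCND1, and 74.1 ± 1.33 with p53 siRNA, 81.8% of it CCND1. The share of CCND1 was thus at least 90.5% in every library with nutlin or iASPP siRNA in which p53 was not targeted, and at most 84.5% in every other library. Without nutlin this share largely restates the CCND1 levels that chose the gene, and nothing is read from it.

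The kinases outnumbered the cyclins in transcripts only in some groups. CDK4 plus CDK6 per D-type cyclin sum was 2.34 ± 0.151 with CTR siRNA, 0.775 ± 0.0688 with iASPP siRNA and 2.34 ± 0.0862 with p53+iASPP siRNA. With nutlin it was 1.17 ± 0.0813 with CTR siRNA and 0.760 ± 0.243 with iASPP siRNA. All 4 iASPP siRNA libraries without p53 siRNA were below 1 and all others above it. CDK4 plus CDK6 was at 183 ± 8.68 FPKM with CTR siRNA and 202 ± 16.8 with iASPP siRNA. Without nutlin this split thus largely restates the CCND1 levels that chose the gene, and nothing is read from it. CDK6 was a small part of the kinase transcripts, 1.17% with CTR siRNA and 4.93% with iASPP siRNA.

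CDKN1A, the inhibitor that binds both cyclin and kinase, was compared with the D-type cyclins in the same way. Its level per D-type cyclin sum was 0.914 ± 0.00254 with CTR siRNA, 1.57 ± 0.00383 with iASPP siRNA and 15.1 ± 0.0527 with CTR siRNA+nutlin. With iASPP siRNA+nutlin the 2 libraries were at 7.21 and 4.49. The CTR siRNA+nutlin libraries thus had by far the most CDKN1A transcript per cyclin transcript, and the iASPP siRNA+nutlin libraries less. CCND1 made up 91.3% and 94.7% of the cyclin sum in these 2 groups. The difference between them thus in part restates CCND1 levels that may have entered its choice, and nothing is read from it. CDKN1A itself was at 1656 and 776 FPKM with iASPP siRNA+nutlin, around the 1510 and 1577 FPKM with CTR siRNA+nutlin, and its log2 difference of -0.44 did not pass (adjusted p = 0.612).

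**Figure D3:**
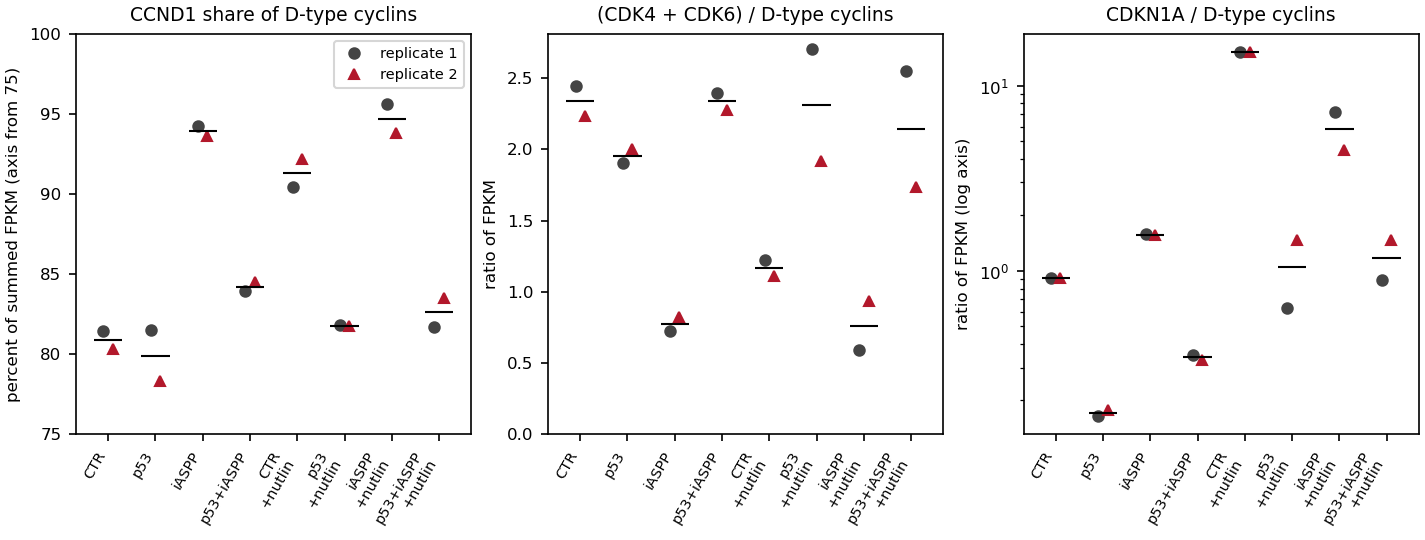
CCND1 as a percent of summed D-type cyclin FPKM (left, axis from 75), CDK4 plus CDK6 per D-type cyclin sum (middle) and CDKN1A per D-type cyclin sum (right, log axis) in the 8 groups. Circles and triangles are replicates 1 and 2, and lines are means. The kinase to cyclin ratio is 0.775 with iASPP siRNA and 2.34 with CTR siRNA, and the CDKN1A ratio is highest with CTR siRNA+nutlin at 15.1.

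The other genes of the pathway were taken as lists from general knowledge. For nutlin in CTR siRNA cells, where CCND1 rose, the genes downstream of the cyclin D kinases fell. In that comparison 26.8% of all genes were called. All 5 of cyclins E1, E2 and A2, CDK2 and CDC25A fell (list median log2 difference -2.26, all genes -0.20), and 19 of 20 E2F-driven G1/S genes fell (median -2.86), all but PCNA, the replication clamp, which is named here after its value was seen. RRM2, a subunit of ribonucleotide reductase, was at 66.9 ± 0.0478 FPKM without and 1.66 ± 0.392 FPKM with nutlin (adjusted p = 3.1e-05). E2F1 itself fell from 7.44 ± 0.341 to 0.166 ± 0.235 FPKM (adjusted p = 5.0e-05). Of the 3 RB family genes, RBL1 (p107) fell by 1.49 on the log2 scale (adjusted p = 6.2e-04) and the other two did not pass, a share near that of all genes.

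The inhibitors did not move as a group. CDKN1A rose from 71.7 ± 1.42 to 1543 ± 47.7 FPKM with nutlin in CTR siRNA cells (adjusted p = 2.4e-05), whereas CDKN1B (p27) fell from 10.5 ± 0.705 to 4.37 ± 0.312 FPKM (adjusted p = 3.9e-04) and CDKN1C (p57) from 6.77 ± 0.415 to 2.96 ± 0.102 FPKM (adjusted p = 0.0124). Of the 4 INK4 genes, CDKN2A fell from 48.9 ± 15.1 to 15.0 ± 0.982 FPKM (adjusted p = 0.00155), a level per gene that does not tell its transcripts apart. CDKN2C fell from 1.26 ± 1.03 FPKM, a wide spread near the floor, to libraries listed at 0 (adjusted p = 0.0145). The other 2 did not pass. At 2 of 4 against 26.8% of all genes, the INK4 count is too small to be read. Not every fall of CDKN1B, CDKN1C, CDKN2A and CDKN2C kept its call when 1 library of the comparison was left out. With p53 siRNA in the nutlin libraries the same 4 genes other than CDKN1A were higher: CDKN1B by 1.01, CDKN1C by 1.39, CDKN2A by 1.30 and CDKN2C by 1.28, all past the threshold in a comparison where 22.5% of all genes were called. Without replicate 1 of p53 siRNA+nutlin 0 of the 4 INK4 genes passed there.

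In iASPP siRNA cells, where 5.21% of all genes were called, nutlin lowered 19 of the 20 E2F-driven genes (median -1.57, all genes -0.05) and 4 of the 5 cyclin E, cyclin A and CDK2 genes (median -2.16); PCNA and CCNE1 were those that did not pass. These calls rested on both libraries without nutlin: without replicate 1 or replicate 2 of iASPP siRNA, or with only the groups compared in the fit, 0 of the 20 and 0 of the 5 passed (medians -1.63 to -1.56 for the 20), and the genes called in all fell from 555 to 3, 0 and 3. Without replicate 1 of iASPP siRNA+nutlin 6 of the 20 passed (median -1.05), and without replicate 2 19 did (median -2.12). CCND1 in these libraries was at 219 and 162 FPKM. p53 siRNA on top of iASPP siRNA and nutlin raised 19 of the 20 E2F-driven genes, again all but PCNA (median 1.84, all genes 0.09, 15.6% of all genes called), while it lowered CCND1 and CDK6. Of the 20, 19 rose with either replicate of the 3 spread groups left out (median 2.45 without replicate 2 and 1.36 without replicate 1), and 0 passed with only the groups compared in the fit. These lists share the iASPP siRNA+nutlin libraries.

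Of 22 tested transcription factors known to act on CCND1, nutlin in CTR siRNA cells raised 1, STAT3 (log2 difference 1.00, adjusted p = 0.00345), and lowered 5, among them the immediate early factor EGR1 (-1.38, adjusted p = 0.00895) and ETS2 (-0.87, adjusted p = 0.00621), with TCF7L2, JUN and TEAD1 as the remaining ones. These 6 of 22 are close to the 26.8% of all genes called, so the count says nothing particular about these factors, and 2 or 3 passed without any 1 of the 4 libraries compared. With iASPP siRNA and nutlin, p53 siRNA lowered 3, among them STAT3 (-1.10, adjusted p = 0.00407) and the Hippo pathway co-activator YAP1 (-0.58, adjusted p = 0.0186), with MYC as the remaining one, and raised ETS2 (0.94, adjusted p = 0.00787). These 4 of 22 are likewise close to the 15.6% of all genes called, and with replicate 1 of the 3 spread groups left out 2 passed. For iASPP siRNA with nutlin 0 of the 22 passed under limma (7 with replicate 2 of the 3 spread groups left out and 6 with replicate 1), in a comparison where 0.769% of all genes did; the smallest p was that of ETV4 (-0.50, adjusted p = 0.119). Among the growth factor and MAPK genes that passed, iASPP siRNA with nutlin raised the receptor EGFR, from 3.57 ± 0.0674 to 7.69 ± 1.24 FPKM (adjusted p = 0.0415), and lowered the EGFR ligand AREG, from 984 ± 59.8 to 431 ± 57.3 FPKM (adjusted p = 0.00914). Without replicate 1 of CTR siRNA+nutlin 0 of these 20 genes passed.

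Of 9 neighbours of CCND1 on chromosome 11, MYEOV passed the threshold in the direction of CCND1 in 3 of the comparisons that were tested for CCND1. It was at 18.6 ± 0.128 FPKM with CTR siRNA, 30.3 ± 0.355 with CTR siRNA+nutlin, 42.1 ± 0.471 with iASPP siRNA+nutlin and 25.2 ± 0.0801 with p53+iASPP siRNA+nutlin. Nutlin in CTR siRNA cells raised it by 0.68 (adjusted p = 5.0e-04), and p53 siRNA lowered it, with log2 differences of -0.50 (adjusted p = 0.00418) with nutlin and -0.72 (adjusted p = 0.00111) with nutlin and iASPP siRNA. CTTN, which encodes cortactin, also fell in the last comparison (-0.51, adjusted p = 0.0204), where 15.6% of all genes were called. For p53 siRNA with nutlin, where 22.5% were called, 2 neighbours went the other way from MYEOV and CCND1. These were FADD (0.67, limma adjusted p = 0.00499) and PPP6R3 (0.61, limma adjusted p = 0.00652), which rose. The iASPP effect on MYEOV with nutlin was 0.46 and missed the threshold (adjusted p = 0.0615). Without nutlin, a comparison not tested for CCND1, MYEOV was at 41.5 ± 0.116 FPKM with iASPP siRNA, higher by 1.12 (limma adjusted p = 4.2e-04). CTTN was also higher there (0.53, limma adjusted p = 0.0308), so 2 of the 9 neighbours were called, against 7.86% of all genes. That comparison chose CCND1, and nothing is read from these values. The remaining 8 neighbours held 1 rise, of CTTN, and 2 falls for nutlin in CTR siRNA cells, those of PPP6R3 (-0.64) and FADD (-0.50), 3 of 8 where 26.8% of all genes were called, so no more is read from this count. The remaining names in these counts were added after their values were seen.

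The genes whose 8 group means were most like those of CCND1, among 5065 genes with enough spread, were ITGB8 (Pearson r = 0.987), YAP1 (0.983), CPA4 (0.980), TFPI (0.972), ITPRIPL2 (0.965) and PTPN14 (0.962). The correlations are descriptions over 8 groups that include those that chose CCND1. CPA4, a carboxypeptidase, had the widest range, from 13.9 FPKM with CTR siRNA to 88.3 with iASPP siRNA and 23.5 with p53+iASPP siRNA. YAP1 went from 19.3 to 36.5 and 24.6 FPKM in the same groups, and ITGB8, an integrin subunit, from 0.489 to 2.82 and 1.04 FPKM. For CDK6 the 3 most alike were ITPRIPL2, ITGB8 and FAM102A, for CCND3 they were PRPS1, NAA15 and TOMM6, and for CDK4 they were THOC6, SIAH2 and DCAF16. ITGB8 and ITPRIPL2 were on the lists of both CCND1 and CDK6.

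**Figure D4:**
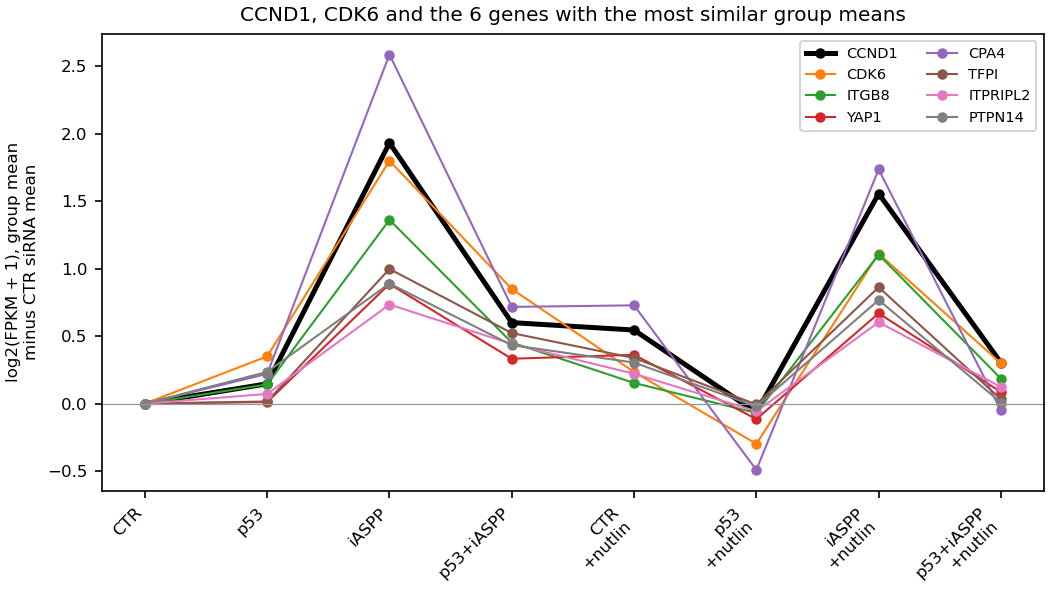
Group means of log2(FPKM + 1) minus the CTR siRNA mean (y axis) in the 8 groups (x axis) for CCND1 (black), CDK6 and the 6 genes with the most similar group means. Lines join group means of 2 libraries and do not stand for a time course. All 8 genes peak with iASPP siRNA, CPA4 at 2.59 and ITPRIPL2 at 0.73, and stand second highest with iASPP siRNA+nutlin.

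Reads of overlapping genes may be shared, since the sources used here do not say whether counting used strand. Of the 4830 exon bases of CCND1 (chr11:69641087-69654474), 497 overlap LTO1 on the other strand, which averaged 4.14 FPKM. Of the 3168 exon bases of CDK4 (chr12:57747727-57756013), 1369 overlap TSPAN31 on the other strand, which averaged 9.10 FPKM. Both partners stood far below the gene they overlap, but how many reads were shared or dropped was not tested.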

How the data were processed

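The deposited table gives FPKM values per gene for 16 libraries, made by the authors. Per the labels' protocols, bead-purified mRNA was converted to cDNA for Illumina sequencing. Per the submitters' processing notes the builds were hg38 and GRCh38 and edgeR was among the tools; the aligner, the counting and its strand setting were not given in the sources used here. FPKM keeps no counts, so no counting interval is given. Relative depth was read from steps of values below 1 FPKM, matched within 0.4 percent. Mitochondrial genes were not used here.

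The 5 members and the gene lists were chosen with earlier results of these data known. Genes averaging 1 FPKM or more over the libraries (10662 of 20271) were tested on log2(FPKM + 1) with limma 3.58.1 in R 4.3.3, in 1 fit of 8 group means with an intensity trend (8 residual degrees of freedom), with Benjamini-Hochberg adjustment per comparison over all genes tested, two-sided, at 0.05. Fold changes on this scale understate those of low genes. An exact permutation test of 2 against 2 libraries cannot go below p = 0.333. The fit was checked on simulated data. Named genes are the members, CDKN1A and PPP1R13L, up to 3 called genes of each list with the largest change (where none passed, the 1 with the smallest p), and the genes most like each member in their group means (SD of at least 0.25). Replicate 2 of the 3 groups whose replicates lay apart was left out as an alternative known from an earlier analysis; 2 libraries cannot show which departs (array weights were equal within each group), so leaving out replicate 1 was added after seeing the data, as were the counts of list genes in these settings. Alternatives were another pseudocount (0.1), no filter, median-of-ratios scaling, replicate block, array weights, only the groups compared, averaged close pairs, and libraries left out. Symbols were filled from GENCODE 29 for 238 rows. The tables of protein sequences were not used here. Some results are not reported here.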

Additional observations from a re-analysis of the deposited data

Results flagged for a closer look

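The response of CCND1 to nutlin differed between CTR siRNA and p53 siRNA cells by -0.76 on the log2 scale, the one of these differences that was tested (limma, adjusted p = 0.0217). It also uses the CTR siRNA libraries that entered the choice of CCND1, and the p53 siRNA libraries without nutlin that may have. That test is thus not independent of the choice. Leaving out 1 library at a time it ranged from -0.799 to -0.717, and its call was not kept in every such fit. For the following differences every library of one group lay on one side and every library of the other on the opposite side. These differences were not tested, because they contain the contrast of iASPP siRNA with CTR siRNA that chose CCND1. The nutlin response was lower with iASPP siRNA than with CTR siRNA by a log2 difference of -0.92 for CCND1 and of -0.92 for CDK6. The p53 siRNA effect without nutlin differed between iASPP siRNA and CTR siRNA cells by -1.48 for CCND1, -1.30 for CDK6 and 0.56 for CDK4. For CCND1 and CDK6 both p53 siRNA libraries lay above those of CTR siRNA, and both p53+iASPP siRNA libraries lay below those of iASPP siRNA. For CDK4 both directions were opposite to that. The p53 siRNA effect without nutlin and without iASPP siRNA was tested, and it passed for none of these genes. It was 0.15 for CCND1 (limma adjusted p = 0.646), 0.35 for CDK6 (0.457) and -0.10 for CDK4 (0.868). The nearest CDK4 libraries there were at 173 FPKM with p53 siRNA and 175 FPKM with CTR siRNA. A change of direction was thus not shown. CDK4 without nutlin was at 169 ± 5.60 FPKM with p53 siRNA and 264 ± 9.30 with p53+iASPP siRNA (SD, n = 2).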

How the results depend on the processing

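Across 25 alternative settings, 1000 of 1100 values of the 44 member comparisons kept their direction and side of the threshold, 45 lost and 40 gained a call and 15 changed sign, and all 11 calls kept their direction. Only 2 of the 11 stayed past the threshold in every setting other than averaging the close pairs, and 0 of 11 passed with the close pairs averaged. That setting has fewer samples in the fit; it gave CCND1 the same differences with adjusted p = 0.477 for nutlin in CTR siRNA cells (0.545), 0.314 for p53 siRNA with nutlin (-0.611), 1 for iASPP siRNA with nutlin (1.011), 0.0736 for p53 siRNA with iASPP siRNA and nutlin (-1.252) and 0.797 for the nutlin by p53 interaction (-0.758). With only the groups compared in the fit, which also has fewer samples, iASPP siRNA with nutlin had adjusted p = 0.638 (1.011) and p53 siRNA with iASPP siRNA and nutlin 0.161 (-1.252). With replicate 2 of the 3 spread groups left out the p53 by iASPP interaction of CCND1 with nutlin passed (-0.914), and with replicate 1 left out, chosen after seeing the data, it did not (-0.368) while nutlin in p53 siRNA cells did (-0.232). Both settings take the spread from the 5 close groups. Leaving out 1 library at a time, CCND1 ranged from 0.504 to 0.586 for nutlin in CTR siRNA cells, -0.595 to -0.158 for nutlin in iASPP siRNA cells, 0.792 to 1.229 for iASPP siRNA with nutlin, -0.859 to -0.422 for the p53 by iASPP interaction with nutlin and -0.799 to -0.717 for the nutlin by p53 interaction. The following uncalled differences changed sign. CDK4 for nutlin in p53 siRNA cells was 0.005 with scaling and 0.253 with replicate 2 of the 3 groups left out, and -0.280 to 0.253 leaving out 1. Its p53 by iASPP interaction with nutlin was 0.060 and 0.092 in those settings, and -0.313 to 0.219 leaving out 1. CDK4 for iASPP siRNA with p53 siRNA and nutlin ranged from -0.030 to 0.502, and the p53 by iASPP interaction with nutlin from -0.048 to 0.163 for CCND3 and from -0.631 to 0.071 for CDK6 (-0.016 and 0.065 with replicate 1 of the 3 groups left out).

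Replicate numbers showed little pairing of the libraries across genes. Over 28 pairs of groups the correlation of replicate 2 minus replicate 1 was -0.032 to 0.304 (median 0.023), and 3 exceeded 0.1. The highest was between p53 siRNA+nutlin and p53+iASPP siRNA+nutlin, both among the spread groups. Replicate numbers did separate the libraries by relative depth, 0.824 to 1.33 against 3.67 to 7.67, and whether libraries of the same number share a batch was not tested. With the replicate block CCND1 was 0.545 for nutlin in CTR siRNA cells (adjusted p = 0.0100) and -0.758 for the nutlin by p53 interaction (adjusted p = 0.0264), no member's call changed, and the genes called for iASPP siRNA with nutlin went from 82 to 34. Other counts of genes called also moved by over 1.5 times. With replicate 2, and with replicate 1, of the 3 spread groups left out, 555 became 2952 and 1155 for nutlin in iASPP siRNA cells, 82 became 1657 and 1244 for iASPP siRNA with nutlin, 1662 became 3602 and 744 for p53 siRNA with iASPP siRNA and nutlin, and 1040 became 2606 and 2542 for the nutlin by p53 interaction. With 1 library fewer they fell from 555 to 0 (iASPP siRNA replicate 2), from 82 to 0 (CTR siRNA+nutlin replicate 1), from 1040 to 403 (p53 siRNA replicate 1) and, for iASPP siRNA without nutlin, from 838 to 25 (iASPP siRNA replicate 1), so the shares called are not fixed backgrounds. With the close pairs averaged 2861 became 4 for nutlin in CTR siRNA cells and 2397 became 1 for p53 siRNA with nutlin.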
